A study of Mus musculus with 2 samples.

Results

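Solute carriers are membrane proteins that move amino acids, sugars, ions, metals, vitamins and metabolites into and out of cells and organelles, and most of their genes are named *Slc* with a family number. The genes described here are the 100 *Slc* genes that were selected on expression level, by a mean of 50 or more between the WT and the *Cxxc1*-deficient value of the deposited RNA-seq table. They are 100 of the 374 *Slc*-named genes among the 21041 genes of the table. The level was used to choose them, so their levels are a description and carry no test. Of the 100 genes, 96 encode carriers and 4 share only the name. Those 4 are *Slc9a3r1*, a scaffold protein, *Slc4a1ap*, an adaptor protein, *Slc7a6os*, a gene on the opposite strand beside *Slc7a6*, and *Slc2a4rg-ps*, a pseudogene.

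The study asked how loss of Cxxc1, a CpG-binding subunit of the Setd1 complexes that place the histone mark H3K4me3 at promoters, affects thymocytes. RNA came from DP thymocytes, the CD4+CD8+ double-positive cells that form most of the thymus, each genotype being represented by a single library. Per the study's methods, WT mice carried *Cxxc1* fl/fl without Cre and deficient mice carried *Cxxc1* fl/fl h*CD2*-Cre, on a C57BL/6 background, and the mice were 3 to 4 weeks old. The genotype label of the deficient library reads *Cxxc1*+/- instead. Both groups therefore carry the floxed alleles by the methods, and the h*CD2* promoter drives Cre in early thymocytes and in other immune cells. How many mice each library pooled is not stated for RNA-seq. Since each genotype has 1 library, differences below cannot be set against replicates, and p-values are left out. In bulk RNA, fewer cells of a type and less RNA per cell cannot be told apart.

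As background, thymocytes pass through DP stages in which they first divide rapidly and then rest while they await selection. Dividing T cells take up glutamine, leucine, cystine, glucose, iron and phosphate through plasma membrane carriers, export lactate with protons, and exchange ATP, ADP, phosphate and metabolites across the inner mitochondrial membrane through the Slc25 family. Several carriers work only with a partner, such as the Slc7 light chains with the heavy chain Slc3a2, or the lactate carrier Slc16a1 with the chaperone basigin.

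Each deposited value is a normalized expression value rounded to whole numbers. Most low values of the table matched whole numbers of reads divided by transcript length, so levels are compared between genes as values per length, and approximate reads could be estimated. Approximate reads over all genes with a length came to 1403977 for WT and 724544 for the *Cxxc1*-deficient library, and the median member has approximately 88.5 and 47 reads. Values are given in this order from here on, WT first and *Cxxc1*-deficient second. *Cxxc1* itself was at 91 and 50, a ratio of 0.55 with an approximate 95% counting interval from 0.338 to 0.877. By qPCR the study found almost no *Cxxc1* mRNA in deficient DP cells, and by western blot it found the protein deleted. Cre removes only some exons of the gene, whereas the value here is for the gene as a whole. What the remaining reads come from was not tested. Of 15 Y-linked genes, WT had 0 and the *Cxxc1*-deficient library 7 above 0, with a highest value of 67, and *Xist* was at 2419 and 1021. The libraries thus differ in sex-linked genes as well as in genotype. Sex and genotype cannot be told apart here. The 10 listed DP marker genes were all present and lower in *Cxxc1*-deficient cells, with summed values of 36188 and 9698, and 8 of the 10 were at least 2-fold lower. *Cd4* was at 2728 and 1257, *Cd8a* at 3503 and 507, and *Rag1*, a recombinase gene of DP cells, at 20778 and 5058. The part of this difference in the values of the *Slc* genes was not tested. Most markers of other cells lay at the level of the olfactory receptor genes described next, so their sums bear little on the cell mix. Macrophage and dendritic cell markers summed to 277 and 273, B cell markers to 196 and 167, NK cell markers to 133 and 124, and markers of stroma or thymic epithelium to 196 and 191.

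The label "expressed" was checked against olfactory receptor genes, which are not known to act in thymocytes. Of the 1122 olfactory receptor genes, 62 (5.53%) also had a mean of at least 50, and the highest mean was 69. Of the 100 *Slc* genes, 62 lay above every olfactory receptor gene and 38 lay at or below the highest one. Among those 38 are carriers known from other organs, such as *Slc10a1*, the hepatocyte bile acid carrier, at 51 and 50, and *Slc14a2*, the kidney urea carrier, at 61 and 59. Values between 50 and 69 therefore do not by themselves show that a gene is used in DP thymocytes.

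At a threshold of 2-fold, 25 of the 100 *Slc* genes were lower in *Cxxc1*-deficient cells and 0 were higher, against 34.9% and 0.587% of all 6129 genes with a mean of at least 50. In either amount, 80 had a lower and 20 a higher value, against 87.7% lower of all genes at this level. The log2 ratio, taken as *Cxxc1*-deficient to WT throughout, had a median of -0.59 for the *Slc* genes, with quartiles of -0.99 and -0.05, and -0.76 for the 6029 other genes. The lower values were thus shared with the other genes of this level, and the share of *Slc* genes past 2-fold was below the share of all genes. The median over all genes with a value above 0 was -0.20, so the direction depends on how the libraries are scaled. When both libraries were given an equal median over these 6129 genes, the median of the *Slc* genes was 0.12. Of the 100, 4 were at least 2-fold lower, against 7.82% of all 6129 genes, and 6 were at least 2-fold higher. The 4 were *Slc7a11*, *Slc7a6os*, *Slc9a3r1* and *Slc15a2*, and the 6 were *Slc5a9*, *Slc25a2*, *Slc16a10*, *Slc25a23*, *Slc43a1* and *Slc16a7*. All folds below are between the deposited values, without such scaling.

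**Figure D1:**
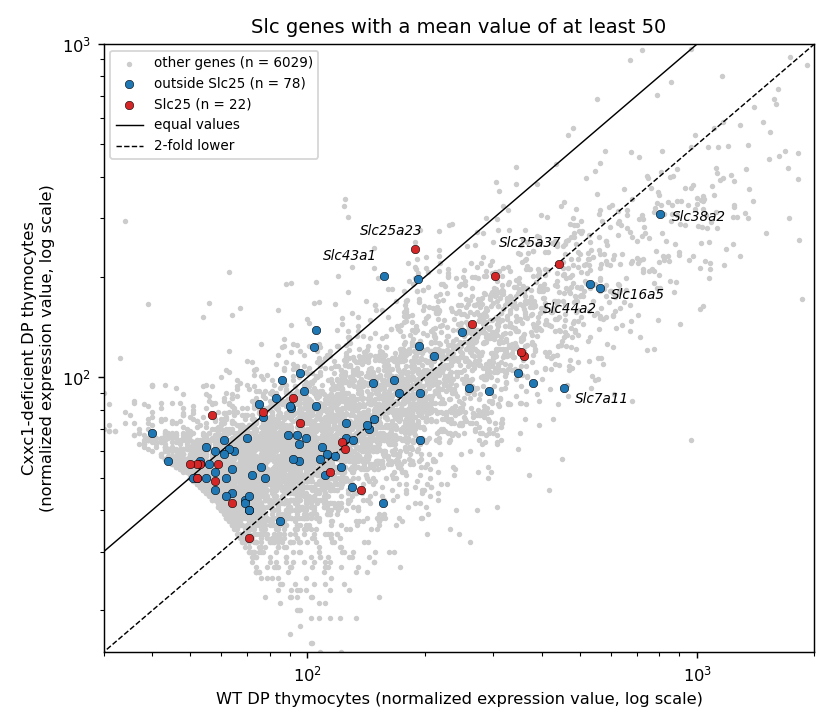
Normalized expression value of each gene in WT (x axis, log scale) and *Cxxc1*-deficient DP thymocytes (y axis, log scale), for genes with a mean of at least 50; grey points are other genes, red points the 22 Slc25 members and blue points the 78 other *Slc* genes. The solid line marks equal values and the dashed line a 2-fold lower value; the axes leave out genes outside the plotted range, and 80 of the 100 *Slc* genes lie under the solid line.

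The difference grew with the level of the gene, among *Slc* genes and among all genes. Of the 71 *Slc* genes with a mean from 50 to 100, 11 were at least 2-fold lower, against 20.0% of all genes of that level, and their median log2 ratio was -0.36 against -0.54 for the others. From 100 to 200, 5 of 17 were at least 2-fold lower, against 50.1%, with medians of -0.86 and -1.0. At a mean of at least 200, 9 of 12 were at least 2-fold lower, against 69.3%, with medians of -1.52 and -1.28. The 274 *Slc* genes below the threshold had a median log2 ratio of 0.00, with 132 lower, 135 higher, and past 2-fold were 19 of the lower and 16 of the higher ones. Of the 62 *Slc* genes above every olfactory receptor gene, 23 were at least 2-fold lower, with a median of -0.87, and of the 38 others 2 were, with a median of -0.13.

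**Figure D2:**
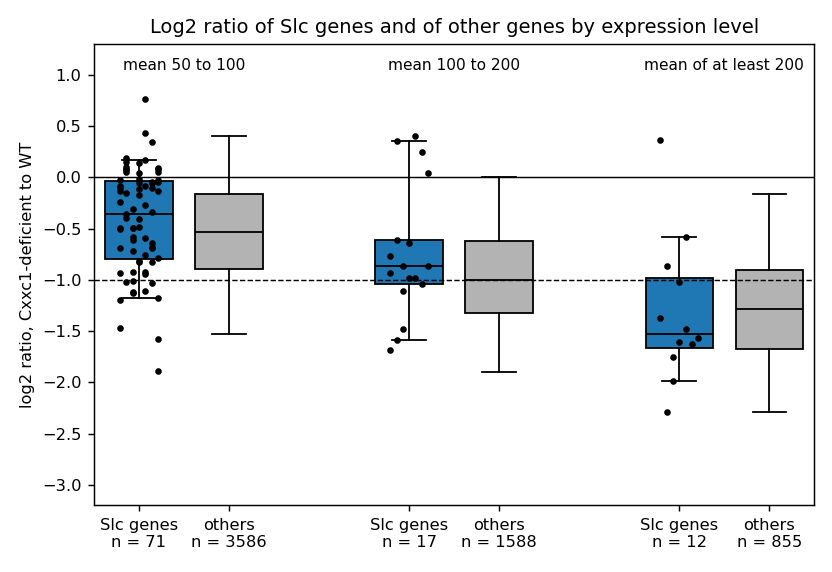
Log2 ratio of *Cxxc1*-deficient to WT by range of mean value, for *Slc* genes (blue boxes, with each gene as a point) and other genes (grey boxes); boxes span the quartiles with the median as a line, and whiskers reach from the 5th to the 95th percentile. The dashed line marks a 2-fold lower value, and the median of the *Slc* genes goes from -0.36 over -0.86 to -1.52 with level.

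For 98 of the 100 genes, an approximate 95% interval (Clopper-Pearson) of the ratio could be formed from the recovered reads. Such an interval covers counting error only and compares the 2 libraries, not the genotypes. It lay wholly below 1 for 48 of the 98 genes, against 61.7% of all 5720 genes with a length, and wholly above 1 for 4, against 1.80%. The reads follow from the longest annotated transcript. With the shortest protein-coding transcript instead, a choice added after the data were seen, the counts were 31 and 0.

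**Figure D3:**
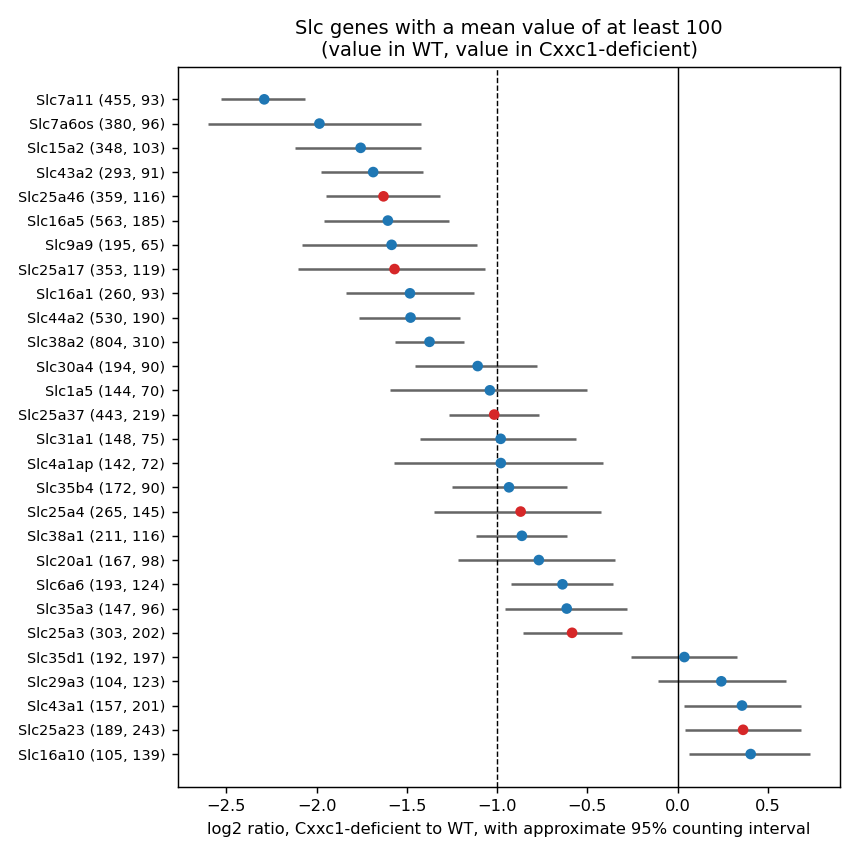
Log2 ratio (points) with approximate 95% counting interval (bars) for 28 of the 29 *Slc* genes with a mean of at least 100, red for Slc25 members and blue for the others, with the WT and the *Cxxc1*-deficient value beside each name. Of the 29 genes 24 were lower and 14 at least 2-fold lower (dashed line), and *Slc7a11* has the lowest ratio. Among all genes, 50.1% were at least 2-fold lower at a mean from 100 to 200 and 69.3% from 200 up.

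Amino acid and peptide carriers numbered 16, most of them at the plasma membrane. Of the 16 genes, 13 were lower in *Cxxc1*-deficient cells and 5 at least 2-fold lower, with a median log2 ratio of -0.66. Across all 6129 genes at this level, 87.7% were lower and 34.9% at least 2-fold lower. *Slc38a2*, a sodium-coupled carrier of small neutral amino acids such as glutamine and alanine, had the highest value per length of all 100 genes, at 804 and 310, 2.59-fold lower with an interval from 2.28 to 2.96. The related glutamine carrier *Slc38a1* was at 211 and 116, 1.82-fold lower with an interval from 1.53 to 2.17. On mm9 the pair lies 44.5 kb apart on chromosome 15, *Slc38a1* from 96401849 to 96473344 and *Slc38a2* from 96517825 to 96530129, both on the minus strand. *Slc1a5*, an exchanger that brings glutamine into T cells, was at 144 and 70, 2.06-fold lower with an interval from 1.42 to 3.02. These genes were named for their known place in T-cell metabolism. In the Slc38 family, *Slc38a10* was at 55 and 62, and *Slc38a6*, below the threshold, was at 47 and 24, 1.96-fold lower.

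*Slc7a11*, the light chain of the cystine-glutamate exchanger that supplies cysteine for glutathione, was the member with the lowest ratio. It was at 455 and 93, 4.89-fold lower with an interval from 4.19 to 5.77, on approximately 1035 and 182 reads. *Slc3a2*, the heavy chain that carries Slc7a11 to the plasma membrane, was at 65 and 60, 1.08-fold lower with an interval from 0.680 to 1.72. The light chain was thus listed well above its heavy chain in WT, and its value came closer to that of the heavy chain in *Cxxc1*-deficient cells. *Slc7a6*, another light chain of Slc3a2, was at 76 and 54, and *Slc7a5*, the leucine carrier of activated T cells, was below the threshold at 40 and 37. The means of *Slc3a2* (62.5) and *Slc7a6* (65) lie in the range of the olfactory receptor genes. The comparison of *Slc7a11* with its heavy chain thus rests on a low value. *Atf4*, a transcription factor known to act on *Slc7a11* and other amino acid carriers, was at 202 and 74.

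The sister genes *Slc43a1* and *Slc43a2*, which encode carriers of large neutral amino acids that need no sodium, differed in direction. *Slc43a2* was at 293 and 91, 3.22-fold lower with an interval from 2.66 to 3.94. *Slc43a1* was at 157 and 201, a ratio of 1.28 (interval 1.02 to 1.61). *Slc16a10*, a carrier of aromatic amino acids, was also higher, at 105 and 139, a ratio of 1.32 (interval 1.04 to 1.66). Both of these intervals begin just above 1 and no longer do so with the shortest transcript. *Slc15a2*, a proton-coupled carrier of dipeptides and tripeptides, was at 348 and 103, 3.38-fold lower with an interval from 2.68 to 4.35. *Slc6a6*, the taurine carrier, was at 193 and 124, 1.56-fold lower. *Slc38a9*, a lysosomal carrier that senses arginine for mTORC1, was at 105 and 82 with an interval of the fold from 0.896 to 1.86.

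Cxxc1 is known to bind unmethylated CpG through its CXXC zinc finger, so the promoters of the members with the lowest and the highest ratios are shown with CpG in capitals. RefSeq promoters on GRCm38.p6, from 250 bases before to 50 bases after the start site, were matched for 73 of the 100 genes by symbol. Among members that encode carriers and have a mean of at least 100 and 1 promoter entry, the 2 lowest ratios belong to *Slc7a11* and *Slc15a2*, the 2 highest to *Slc16a10* and *Slc43a1*, and *Slc30a4*, a zinc carrier, has the most CpG of those at least 2-fold lower. This choice was made after the values were seen.
*Slc7a11*, chr3:50443564-50443863, minus strand: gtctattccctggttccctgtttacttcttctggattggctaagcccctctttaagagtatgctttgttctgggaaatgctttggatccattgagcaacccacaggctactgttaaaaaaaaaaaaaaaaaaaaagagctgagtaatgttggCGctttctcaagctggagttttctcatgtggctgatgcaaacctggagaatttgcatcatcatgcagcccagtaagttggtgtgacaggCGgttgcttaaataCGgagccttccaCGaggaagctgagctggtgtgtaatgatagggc
*Slc15a2*, chr16:36784913-36785212, minus strand: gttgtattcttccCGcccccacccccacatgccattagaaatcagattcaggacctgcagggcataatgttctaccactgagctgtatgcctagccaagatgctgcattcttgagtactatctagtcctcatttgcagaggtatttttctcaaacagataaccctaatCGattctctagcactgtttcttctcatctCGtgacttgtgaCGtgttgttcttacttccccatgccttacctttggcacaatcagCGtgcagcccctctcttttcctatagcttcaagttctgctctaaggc
*Slc30a4*, chr2:122702614-122702913, minus strand: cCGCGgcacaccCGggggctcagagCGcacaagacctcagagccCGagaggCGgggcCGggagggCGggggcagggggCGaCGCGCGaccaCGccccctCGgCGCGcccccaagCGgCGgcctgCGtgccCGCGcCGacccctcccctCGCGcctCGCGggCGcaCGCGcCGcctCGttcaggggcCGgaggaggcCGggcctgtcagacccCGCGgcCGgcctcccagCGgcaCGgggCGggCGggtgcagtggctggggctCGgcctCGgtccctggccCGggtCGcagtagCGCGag
*Slc43a1*, chr2:84840073-84840372, plus strand: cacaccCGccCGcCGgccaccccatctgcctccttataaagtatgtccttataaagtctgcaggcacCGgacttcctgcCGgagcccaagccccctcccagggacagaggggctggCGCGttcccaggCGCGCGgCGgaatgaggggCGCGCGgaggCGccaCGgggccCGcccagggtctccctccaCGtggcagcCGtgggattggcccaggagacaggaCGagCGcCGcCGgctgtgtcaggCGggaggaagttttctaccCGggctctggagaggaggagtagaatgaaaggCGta
*Slc16a10*, chr10:40142205-40142504, minus strand: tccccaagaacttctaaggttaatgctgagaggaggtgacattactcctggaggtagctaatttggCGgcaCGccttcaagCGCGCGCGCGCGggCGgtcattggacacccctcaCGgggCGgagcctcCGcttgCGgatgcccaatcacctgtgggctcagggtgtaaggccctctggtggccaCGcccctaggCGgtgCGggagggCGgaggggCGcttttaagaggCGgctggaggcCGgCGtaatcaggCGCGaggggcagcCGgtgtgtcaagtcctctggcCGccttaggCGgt
The windows of *Slc7a11* and *Slc15a2* hold 4 and 5 CpG, whereas those of *Slc43a1* and *Slc16a10* hold 26 each. *Slc30a4*, at 194 and 90, holds 46, so that members with lower values include promoters at both ends of the range. *Slc7a6os*, which encodes no carrier and was left out of this choice, has a ratio between those of *Slc7a11* and *Slc15a2* and holds 30.

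Over all 73 matched *Slc* genes, the CpG dinucleotide (the letters CG, which read the same on both strands) occurred a median of 21 times per window, with a range from 2 to 46. The 18 matched genes at least 2-fold lower had a median of 26.5 and the other 55 a median of 21, whereas at least 10 CpG were held by 77.8% of the former and 87.3% of the latter. At a mean of at least 100 the medians were 21.25 for the 10 genes at least 2-fold lower and 23 for the other 12, so the measures did not point one way. Of all matched *Slc* genes, 84.9% held at least 10, against 86.4% of the 4703 other genes with a mean of at least 50, 57.9% of the 214 *Slc* genes below the threshold and 44.4% of all 27025 promoters by symbol. CpG counts of the *Slc* genes were thus close to those of other genes of the same level. The counts describe the sequence, and neither Cxxc1 binding nor methylation was analysed here.

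**Figure D4:**
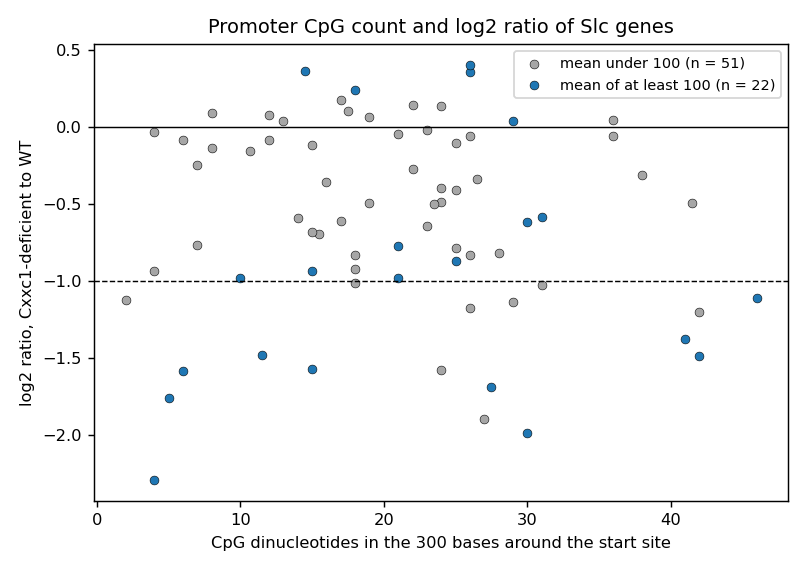
Number of CpG dinucleotides in the promoter window (x axis) and log2 ratio of *Cxxc1*-deficient to WT (y axis) for the 73 *Slc* genes with a RefSeq promoter, in blue for a mean of at least 100 and grey below, with the mean taken over entries where a gene has several. The dashed line marks a 2-fold lower value, and genes under it range from 2 to 46 CpG.

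Among the 7 carriers of sugars and monocarboxylates, 4 were lower and 3 higher in *Cxxc1*-deficient cells. The share of all genes with a mean of at least 50 that were lower was 87.7%. In this group the 2 most abundant were lower by the most. *Slc16a5*, a member of the monocarboxylate carrier family, was at 563 and 185, 3.04-fold lower with an interval from 2.41 to 3.88. *Slc16a1*, which moves lactate and pyruvate with protons, was at 260 and 93, 2.80-fold lower with an interval from 2.18 to 3.58. Its chaperones were lower as well. *Bsg*, which encodes basigin, was at 196 and 87, and *Emb*, which encodes embigin, at 247 and 81. The lactate exporter *Slc16a3* of glycolytic cells was below the threshold at 34 and 36.

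Glucose carriers were low in both libraries. *Slc2a1*, the main glucose carrier of dividing T cells, was at 71 and 40, 1.78-fold lower with an interval from 1.06 to 3.15, and *Slc2a3* was below the threshold at 53 and 42. *Slc50a1*, a sugar carrier of the Golgi and plasma membrane, was at 75 and 83. *Slc5a9*, a sodium-coupled mannose carrier known from gut and kidney, had the highest ratio of all 100 genes, at 40 and 68, a ratio of 1.70 with an interval from 1.15 to 2.57. Its values lie in the range of the olfactory receptor genes, and with the shortest transcript its interval reached 1. The mean of *Slc2a1*, 55.5, lies in that range as well. *Txnip*, which encodes an inhibitor of glucose uptake, was at 877 and 252, and *Hif1a*, a regulator of glycolytic genes, at 282 and 155. *Myc*, a regulator of many carrier genes in dividing T cells, went the other way, at 91 and 192, a ratio of 2.11 with an interval from 1.5 to 3.03.

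**Figure D5:**
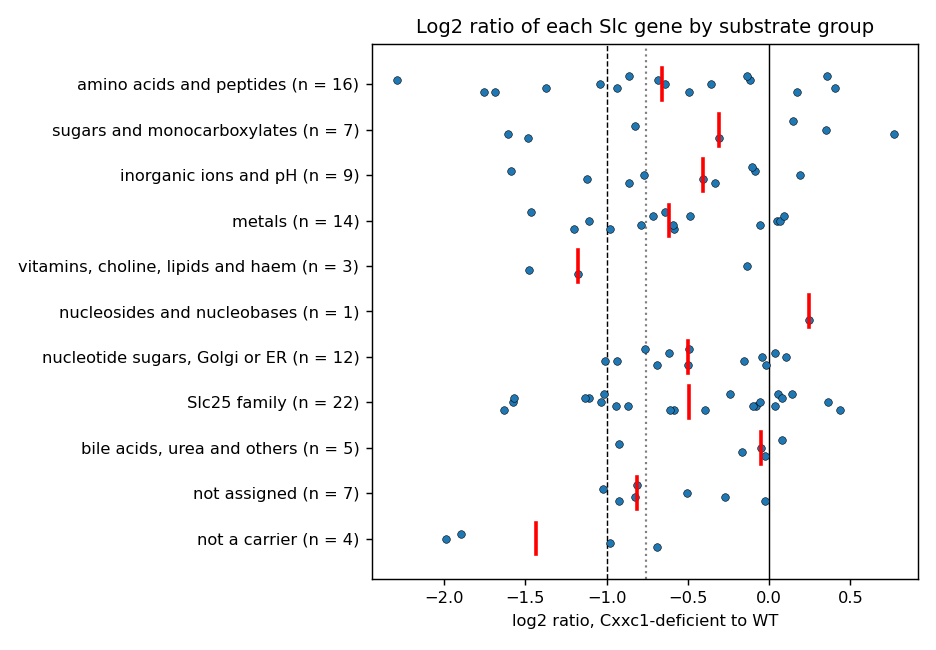
Log2 ratio of *Cxxc1*-deficient to WT of each of the 100 *Slc* genes (points) by substrate group, with the group median as a red bar. The dashed line marks a 2-fold lower value and the dotted line the median of the 6029 other genes (-0.76); every group with more than 1 gene has its median below 0.

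Carriers of inorganic ions numbered 9, with a median log2 ratio of -0.41. Of these, 8 were lower and 2 at least 2-fold lower, against 87.7% and 34.9% of all genes with a mean of at least 50. *Slc20a1*, a sodium-coupled phosphate carrier, was at 167 and 98, 1.70-fold lower with an interval from 1.27 to 2.32. *Slc9a9*, a sodium-proton exchanger of endosomes, was at 195 and 65, 3.0-fold lower with an interval from 2.17 to 4.23. *Slc4a7*, a sodium-bicarbonate carrier, was at 111 and 51, 2.18-fold lower with an interval from 1.67 to 2.86. The sodium-potassium pump makes the gradient that sodium-coupled carriers use, and its beta subunit genes *Atp1b1* and *Atp1b3* were at 344 and 297 in WT and at 88 and 85 in *Cxxc1*-deficient cells.

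Of 14 metal carriers, 11 were lower, against 87.7% of all genes with a mean of at least 50, and the median log2 ratio was -0.62. At least 2-fold lower were 3 of the 14, against 34.9% of all those genes. Those 3 were zinc carriers. *Slc30a4*, which moves zinc into vesicles, was 2.16-fold lower with an interval from 1.72 to 2.74. *Slc39a6*, a zinc importer, was at 130 and 47, 2.77-fold lower with an interval from 1.90 to 4.04, and *Slc39a7*, which releases zinc from the ER, was at 85 and 37, 2.30-fold lower. Of the other zinc carriers, *Slc39a9* was at 95 and 63, *Slc30a7* at 78 and 50 and *Slc39a14* at 69 and 42, with intervals below 1, and *Slc30a5* was at 94 and 67. *Slc30a9*, kept apart because its substrate was not assigned, was at 118 and 58. *Slc30a1*, the zinc exporter of the plasma membrane, was at 52 and 50, and *Slc39a13* at 58 and 60. Both lie in the range of the olfactory receptor genes, as do the means of *Slc39a7* (61), *Slc30a7* (64) and *Slc39a14* (55.5).

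The copper carriers *Slc31a1* and *Slc31a2* lie on chromosome 4, 62.3 kb apart. *Slc31a1*, the copper importer, was at 148 and 75, 1.97-fold lower with an interval from 1.48 to 2.69. *Slc31a2*, a member of the same family, was at 126 and 73, 1.73-fold lower with an interval from 1.1 to 2.87. *Atp7a*, the copper pump that exports the metal, was at 152 and 90. *Slc11a2*, which moves iron out of endosomes after its uptake through the transferrin receptor, was at 99 and 66, 1.5-fold lower with an interval from 1.09 to 2.09. The receptor gene *Tfrc* was at 113 and 62, and *Fth1*, which encodes a ferritin subunit, at 349 and 105. The magnesium carriers *Slc41a1* and *Slc41a3* were at 83 and 61 in WT and at 87 and 65 in *Cxxc1*-deficient cells.

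The 3 carriers of vitamins, choline and haem had lower values. *Slc44a2*, a choline carrier-like protein, was one of the most abundant members, at 530 and 190, 2.79-fold lower with an interval from 2.30 to 3.40. *Slc23a2*, the ascorbate carrier, was at 122 and 54, 2.26-fold lower with an interval from 1.71 to 3.0. *Slc48a1*, a haem carrier of endosomes and lysosomes, was at 90 and 82, with an interval of the fold from 0.726 to 1.67. The lone nucleoside carrier among the members, the lysosomal *Slc29a3*, was at 104 and 123, and the plasma membrane carrier *Slc29a1* was below the threshold at 40 and 56. Carriers of bile acids, urea and others numbered 5, with a median log2 ratio of -0.05. Among them 0 were at least 2-fold lower, against 34.9% of all genes with a mean of at least 50. *Slc17a5*, the lysosomal sialic acid carrier, was the lowest of these by ratio, at 108 and 57, and *Slc14a1*, a urea carrier, was at 91 and 81.

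Some carriers of the Golgi and ER membranes supply nucleotide sugars for glycosylation. The group formed here also holds carriers of other Golgi or ER substrates, such as *Slc33a1* and the Slc37 genes. Of the 12 genes of this group, 10 were lower and 1 at least 2-fold lower, with a median log2 ratio of -0.50. Over all genes with a mean of at least 50, these shares were 87.7% and 34.9%. *Slc35d1*, a carrier of UDP-glucuronic acid and UDP-N-acetylgalactosamine, was close in both libraries at 192 and 197, with an interval of the ratio from 0.837 to 1.26. *Slc35b4*, a carrier of UDP-xylose and UDP-N-acetylglucosamine, was at 172 and 90, 1.91-fold lower with an interval from 1.53 to 2.38. *Slc35a3*, a carrier of UDP-N-acetylglucosamine, was at 147 and 96, 1.53-fold lower. The CMP-sialic acid carrier *Slc35a1* was the one past 2-fold, at 131 and 65, with an interval of the fold from 1.29 to 3.29. *Slc35c1*, the GDP-fucose carrier, was at 96 and 103.

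The Slc25 family numbered 22 members, of which 16 were lower and 7 at least 2-fold lower, with a median log2 ratio of -0.49 against -0.60 for the 78 members outside it. For all 6129 genes at this level, the shares were 87.7% and 34.9%. Carriers of nucleotides, phosphate and coenzymes made up 10 of the 22, with 4 at least 2-fold lower and a median of -0.91. The 4 carriers of amino acids included 0 past 2-fold, with a median of 0.00. Among these, the means of *Slc25a2* (67), *Slc25a44* (53.5) and *Slc25a38* (53) lie in the range of the olfactory receptor genes. *Slc25a3*, which imports phosphate for ATP synthesis, was at 303 and 202, 1.5-fold lower with an interval from 1.24 to 1.81. *Slc25a4*, an ADP/ATP carrier, was at 265 and 145, 1.83-fold lower with an interval from 1.34 to 2.55. *Slc25a5*, the ADP/ATP carrier of dividing cells, was listed at 16 and 4. That gene has processed copies elsewhere in the genome, and reads that fit more than 1 place were not kept, so its value is uncertain.

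Coenzyme carriers held some of the lowest ratios of the family. *Slc25a17*, the peroxisomal carrier of coenzyme A and adenine nucleotides, was at 353 and 119, 2.97-fold lower with an interval from 2.10 to 4.30. *Slc25a16*, which has been linked to coenzyme A in mitochondria, was at 137 and 46, 2.98-fold lower with an interval from 1.96 to 4.55. *Slc25a32*, linked to folate and FAD, was at 125 and 61, and *Slc25a36*, a pyrimidine nucleotide carrier, at 114 and 52. *Slc25a46*, a protein of the outer mitochondrial membrane that acts in membrane dynamics, was at 359 and 116, 3.09-fold lower with an interval from 2.49 to 3.86. *Slc25a23*, a calcium-regulated carrier of ATP-magnesium and phosphate, was higher, at 189 and 243, a ratio of 1.29 with an interval from 1.03 to 1.60 that reached 1 with the shortest transcript. *Slc25a12*, the aspartate-glutamate carrier, was at 92 and 87, and *Slc25a20*, the carnitine-acylcarnitine carrier, at 77 and 79. The pore genes *Vdac1* and *Vdac2* of the outer membrane were at 216 and 122 in WT and at 93 and 31 in *Cxxc1*-deficient cells.

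*Slc25a37*, mitoferrin-1, brings iron into mitochondria and is best known from red cell precursors. It was the Slc25 member of highest mean, at 443 and 219, 2.02-fold lower with an interval from 1.71 to 2.41. The erythroid marker genes summed to 138 and 160 over 8 listed genes, and *Hba-a1*, *Hba-a2* and *Hbb-b2*, which encode globins, were listed at 0 in both libraries. These globin genes have near-identical copies, and reads that fit more than 1 place were not kept, so their 0 is no measure of red cell RNA. One of the 8, *Klf1*, was at 29 and 64. *Slc25a28*, mitoferrin-2, was at 50 and 55, near the threshold.

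Of the 4 genes that share only the name, 2 were at least 2-fold lower. *Slc7a6os* was at 380 and 96, 3.96-fold lower with an interval from 2.68 to 6.07. Its neighbour *Slc7a6* lies 1.73 kb away on chromosome 8 on the other strand and was 1.41-fold lower. Whether the counting used strand is not given in the sources used here. *Slc9a3r1*, which anchors membrane proteins to the cytoskeleton, was at 156 and 42, 3.71-fold lower with an interval from 2.19 to 6.79. *Slc4a1ap* was at 142 and 72, and *Slc2a4rg-ps* at 71 and 44. Without the 4 genes, 23 of 96 carriers were at least 2-fold lower, against 34.9% of all genes with a mean of at least 50. The median log2 ratio of the 96 was -0.55.

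By location, 38 members act at the plasma membrane, of which 31 were lower and 11 at least 2-fold lower, with a median log2 ratio of -0.68. Members of the mitochondrion numbered 22, with 6 at least 2-fold lower and a median of -0.32, those of the Golgi or ER 18, with 2 and a median of -0.50, and those of endosomes and lysosomes 8, with 2 and a median of -0.63. Among all 6129 genes at this level, 87.7% were lower and 34.9% at least 2-fold lower. No difference between locations was tested.

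At the threshold of the rule, the members just inside were *Slc16a7* at 44 and 56, *Slc10a1* at 51 and 50, and *Slc30a1* at 52 and 50. Just outside were *Slc1a2* at 38 and 61, *Slc39a8* at 65 and 34, and *Slc43a3* at 37 and 61. Of 30 carriers listed for their known place in T-cell metabolism, 20 were members and 10 lay below the threshold. The 10 included *Slc19a1*, the folate carrier, at 38 and 46, *Slc12a2*, a sodium-potassium-chloride cotransporter, at 47 and 38, and *Slc39a10*, a zinc importer, at 56 and 37.

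Pumps, chaperones, pores and regulators that work with carriers were listed separately, and 57 of the 60 listed genes were in the table. At a mean of at least 50, 16 of 39 were at least 2-fold lower, against 34.9% of all genes of that level, with a median log2 ratio of -0.88 against -0.76 for other genes of that level. *Myc* was the only one of the 39 at least 2-fold higher. *Atp6v1d*, a subunit of the vacuolar proton pump that acidifies endosomes and lysosomes, was at 273 and 40, 6.83-fold lower with an interval from 4.73 to 10.5. Another subunit gene, *Atp6ap2*, was at 217 and 66. *Sfxn3*, a mitochondrial serine carrier outside the Slc families, was close in both libraries at 127 and 132.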

How the data were processed

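Total RNA of DP thymocytes was extracted with TRIzol and made into mRNA libraries with a NEBNext kit, 1 per genotype. Reads of 50 bases were called with CASAVA 1.8.2, mapped to mm9 and kept where unique, and summarised per gene with Partek; Bowtie 1.0.1 is named in the submitters' processing notes. Per gene, the authors deposited a score: normalized expression rounded to whole numbers, with the unit not given in the sources used here.

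Log2 ratios of *Cxxc1*-deficient to WT were taken between the deposited values, each at least 1, and called past 2-fold. The worth of 1 read was found by scanning constants over genes with 1 annotated length: with a value taken as reads over transcript length, scaled by a constant of the library, 1 read per kb of transcript was worth 4.06 (WT) and 4.70 (*Cxxc1*-deficient), which placed 1121 of 1429 (78.4%) and 1420 of 1919 (74.0%) scanned genes within 0.51 of the value that a whole number of reads gives, against 36.7% and 54.2% at best for constants elsewhere, so the second constant is less certain. Reads on the longest GENCODE vM1 transcript gave the intervals. They cover counting error only, and *Slc25a51* and *Slc35g2* had no length. Gene coordinates are from GENCODE vM1 (NCBIM37, which is mm9) and promoters are RefSeq on GRCm38.p6.

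Members, gene lists and groups were chosen with earlier results of these data known, and 12 genes were placed in a group after their values were seen. Genes named by rule were the 3 of highest mean per substrate group, the 5 lowest and 5 highest ratios, the 3 on either side of the threshold and the T-cell carriers; all others were named after their values were seen. Some of these genes are not reported here. The promoter comparison and the neighbouring genes were added after the data were seen. Alternatives were 4 scalings, a pseudocount, subtraction of the olfactory receptor level, other filters and other folds. The interval code was tested on simulated data. Intervals used scipy 1.17.1, tables pandas 2.3.3 and numpy 2.4.6, and plots matplotlib 3.10.9, under Python 3.11.15.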

Additional observations from a re-analysis of the deposited data

How the results depend on the processing

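With 1 library per genotype no replicate could be left out. No paired analysis was possible because a single library per genotype forms only 1 pair. Scaling to the same median over genes above 0, and a pseudocount of 10, kept the counts and medians near the reported ones. They gave 21 and 18 genes at least 2-fold lower, against 32.2% and 29.0% of all genes with a mean of at least 50. At the same 75th percentile, 13 genes were at least 2-fold lower and 1 higher, 59% were lower, and the medians were -0.20 for all members and -0.22 outside Slc25. With the same sum without the 100 highest genes, the values were 10, 1 and 52%, with medians of -0.027 for all members, 0.072 for Slc25 and -0.042 outside it. With an equal median over the 6129 genes at this level, they were 4, 6 and 42%, with medians of 0.12, 0.22 and 0.10, so the direction of the medians turned. Of 49 named genes, 21, 36 and 43 moved out of their counting interval under these 3 scalings. The shares of all genes with a mean of at least 50 that were at least 2-fold lower were then 16.2%, 10.4% and 7.82%. After subtraction of the olfactory receptor median, 48 genes were at least 2-fold lower and 1 higher, with medians of -0.90 and -0.94 outside Slc25. That setting put 55.6% of all genes with a mean of at least 50 past 2-fold lower. A mean of at least 30 gave 3 genes higher, 62.2% lower and medians of -0.16 and -0.14. A mean of at least 100 gave 14 lower and medians of -0.98 and -0.98. Among all genes, 50.1% were at least 2-fold lower at a mean from 100 to 200 and 69.3% from 200 up. A *Cxxc1*-deficient value of at least 50 gave 1 higher, 68.4% lower and medians of -0.31 and -0.31. At 1.5-fold, 52 genes were lower and 1 higher, and at 3-fold 8 were lower. Of all 6129 genes at this level, 60.613% were lower by at least 1.5-fold and 10.002% by at least 3-fold. With the shortest transcript, 31 intervals lay below 1 and 0 above, since fewer reads widen them. Depth limits genes near a mean of 50, whose median of reads is low and whose values olfactory receptor genes also reach.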

Other observations

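Some *Slc* genes below the mean threshold differed more between the libraries than most members did. *Slc25a26*, the mitochondrial carrier of S-adenosylmethionine, had a value of 63 in WT and of 18 in *Cxxc1*-deficient cells, 3.50-fold lower. *Slc28a2*, a concentrative nucleoside carrier, was at 42 and 13, and *Slc46a1*, a proton-coupled folate carrier, at 53 and 21. Other genes went the other way, such as *Slc25a41* at 7 and 46, *Slc9a3r2* at 17 and 53 and *Slc9a2* at 17 and 43. These genes were chosen after their values were seen, and their values lie in or near the range of the olfactory receptor genes.

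The 5 pairs of members that lie within 100 kb of each other on mm9 were compared after the data were seen. *Slc38a1* and *Slc38a2* were lower together, as were *Slc31a1* and *Slc31a2*. *Slc6a19* and *Slc12a7*, 28.2 kb apart on chromosome 13, were at 126 and 89 in WT and at 66 and 67 in *Cxxc1*-deficient cells. *Slc14a1* and *Slc14a2* were close in both libraries, and *Slc7a6* and *Slc7a6os* had folds of 1.41 and 3.96.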
